A study of Canis lupus familiaris with 16 samples.

Results

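The 2 lists of methylated regions from M-H libraries of canine lymphoma and of healthy dogs were set against each other peak by peak. Each of their 54806 peaks was called shared when it overlapped a peak of the other list by at least 1 bp, and lymphoma-only or healthy-only when it did not. All peaks of both lists entered, 34939 from lymphoma and 19867 from healthy dogs, out of 145240 peaks in the 4 lists of the series. The comparison addressed where in the genome, beyond promoters, captured methylated DNA differed between the tumours and healthy blood cells.

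MethylCap-seq captures methylated DNA fragments and sequences them, and where captured reads pile up into a peak the DNA was methylated. The lymphoma group was 5 dogs aged 5 to 13 years with high-grade B-cell lymphoma of stages III to V, sampled by fine-needle aspiration of enlarged lymph nodes. The healthy group was 3 dogs aged 2 to 7 years, sampled as mononuclear cells of blood separated on a Ficoll gradient. Each dog has 1 library labelled L and 1 labelled M-H, and the sources used here do not say what the labels mean. The authors deposited 1 peak list per group and label, so the dogs of a group cannot be told apart, there is no spread between dogs, and no test between groups was possible. The median age was 10 years in the lymphoma group and 5 years in the healthy group. Disease, tissue, age and group size went together, and their parts in any difference cannot be told apart. Neither the tumour cell share of the aspirates nor the cell types of the blood samples could be checked in lists of methylated regions. In such bulk samples methylation in fewer cells and fewer methylated copies per cell cannot be told apart either.

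In mammalian genomes most CpG dinucleotides are methylated, while CpG islands, CpG-rich stretches that often hold promoters, are usually free of methylation in normal cells. In lymphomas and many other cancers, islands that Polycomb proteins mark during development, such as those of HOX and neural genes, are known to gain methylation. Methylation within gene bodies is common in transcribed genes, and methylation of enhancers, the distal elements that raise transcription, usually accompanies an inactive state.

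Most healthy peaks had a lymphoma counterpart, whereas a large share of lymphoma peaks had no healthy one. In the lymphoma list 17050 peaks were lymphoma-only, 48.8% of the list (95% Wilson interval 48.3 to 49.3), and 17889 were shared. In the healthy list 1903 peaks were healthy-only, 9.58% of the list (9.18 to 10.0), and 17964 were shared. Intervals here and below cover counting error only. When both lists were cut to the same length by fold, 31.0% of lymphoma and 30.7% of healthy peaks lacked a counterpart. Lists of equal length whose peaks pair nearly 1 to 1 give like shares by arithmetic, so these values say nothing of an asymmetry. Merged into 36839 loci, 48.6% carried peaks of both lists, 46.3% a lymphoma peak alone and 5.17% a healthy peak alone. The lymphoma-only peaks covered 12.6 Mb and the shared lymphoma peaks 15.3 Mb.

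The calls rarely sat on the edge of the overlap rule. Only 2 of the shared lymphoma peaks overlapped by 20 bp or less, 12 overlapped by under 50% of the shorter peak, and the median overlap was 578 bp. Of the lymphoma-only peaks, 401 (2.35%) had a healthy peak within 1 kb, as had 138 (7.25%) of the healthy-only peaks with a lymphoma peak. Where peaks were shared, the healthy peak lay wholly inside its lymphoma peak in 74.7% of 17889 pairs. The lymphoma peak was the wider in 94.0% of pairs, by a median of 162 bp.

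Folds of the lists may not be on a like footing. Fold enrichment is the authors' own ratio of reads in a peak to a background, and no peak in any list is below 6. Some of the values fall on whole multiples of 1 step, 16.6% in the lymphoma list and 4.32% in the healthy list. If they are read by the definition of MACS2, which adds 1 read to numerator and denominator, the steps give a lowest background of 2.64 reads in the lymphoma list and 0.347 reads in the healthy list, a ratio of 7.59. That definition is not stated in the sources used here. In the healthy list 94.7% of the values equalled a whole number divided by 1 plus a background of 2 decimals, within 1e-05, against 1.48% when that grid was moved by 0.0037. In the lymphoma list the shares were 34.2% and 43.35%, so there the grid does not tell this reading from another. So read, a peak at the lowest fold would, at that lowest background, hold 20.4 times the background in the healthy list. In the lymphoma list it would hold 7.90 times. Most peaks of each list are off the step, and their backgrounds and ratios are not given by it. The lowest folds, 6.0046 in the healthy and 6.0002 in the lymphoma list, are themselves off the step. So the 2 ratios describe no listed peak and serve as a scale only. Each step was picked for the largest excess of values on its multiples, and that its background is the lowest was assumed. When the lymphoma list was held to 20.4 times at its lowest background, a fold of at least 15.1, 1081 of 7156 peaks (15.1%) were lymphoma-only. This setting was added after seeing the data. It leaves 69.4% of healthy peaks without a counterpart because it shortens the lymphoma list alone. A lymphoma-only peak is a locus listed in lymphoma and not listed in healthy blood, not a locus shown to be unmethylated there.

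Lymphoma-only peaks were narrower and weaker than shared peaks of the same list. Their median width was 640 bp (interquartile range 505 to 876) against 788 bp (655 to 968), and their median fold was 8.17 (6.87 to 10.6) against 12.7 (9.48 to 16.4). In the healthy list the medians were 420 bp for healthy-only and 589 bp for shared peaks, with folds of 6.68 and 8.42. Counting error on these medians was small, at most 14 bp from end to end for the healthy-only width.

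**Figure D1:**
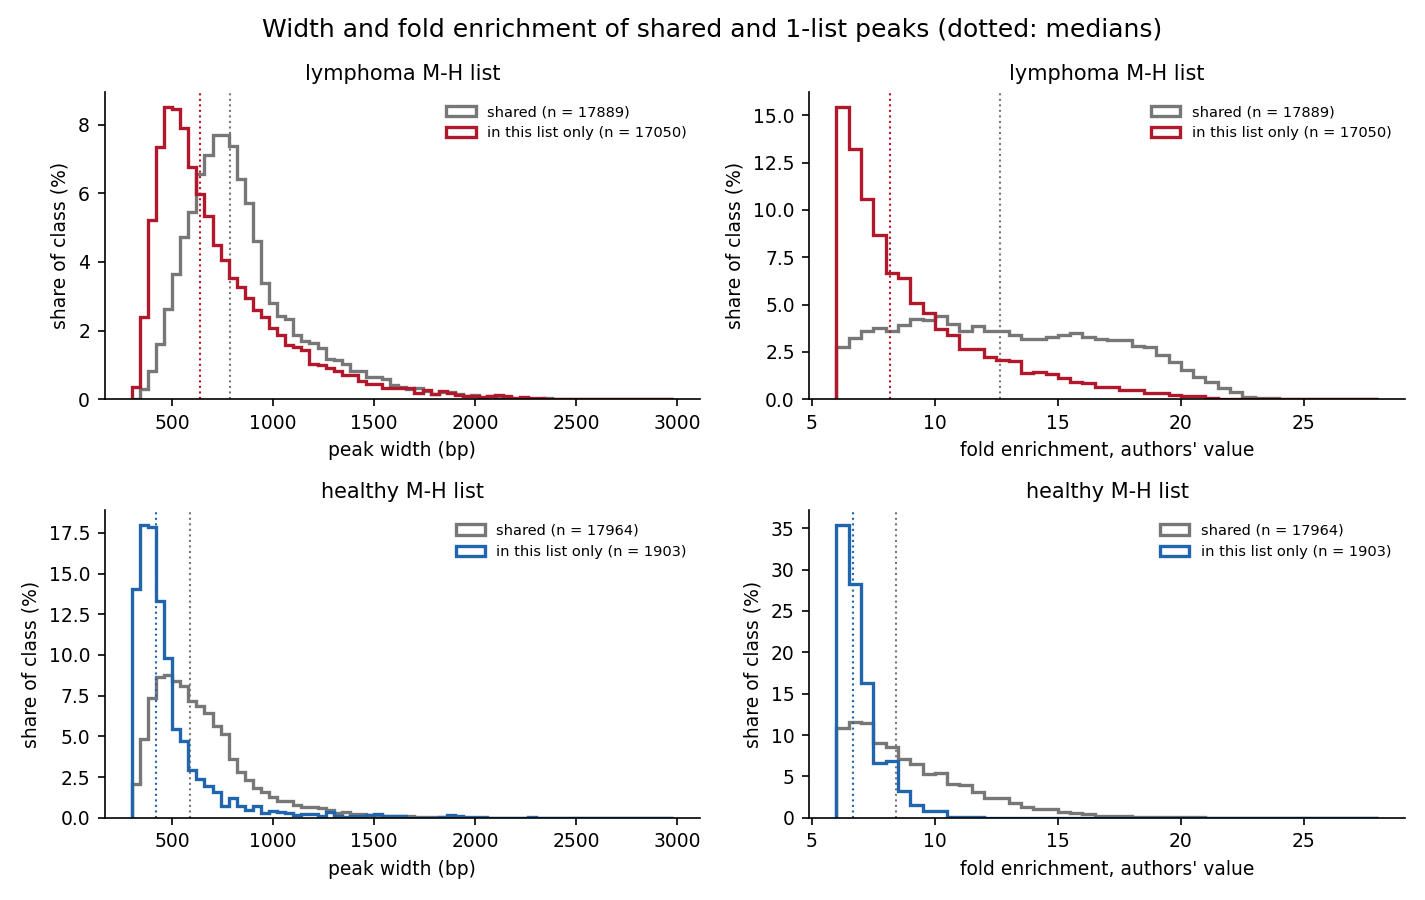
Distribution of peak width (left, bp) and of the authors' fold enrichment (right) for shared peaks and for peaks of 1 list alone, in the lymphoma (top) and healthy (bottom) M-H lists, as a share of each class. Dotted lines mark the medians, 640 against 788 bp and 8.17 against 12.7 for lymphoma, and 420 against 589 bp and 6.68 against 8.42 for healthy.

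Sharing followed fold closely in both lists. From the lowest to the highest of 10 equal bins of lymphoma fold, the lymphoma-only share went from 83.7% to 10.8%, lower in each bin than in the one before. In the healthy list it went from 25.7% in the lowest bin to 0 of 1979 peaks in the highest, with folds of 12.4 and above. Within shared pairs the median lymphoma fold was 9.34 in the lowest 25% of healthy folds and 17.4 in the highest 25%. Width did not behave the same way. The lymphoma-only share was 83.2% in the narrowest bin, 32.8% at 731 to 798 bp and 42.7% in the widest bin, at 1227 bp and above. In that widest bin 88.3% of the peaks were flagged as island or shore, against 28.9% in the narrowest.

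**Figure D2:**
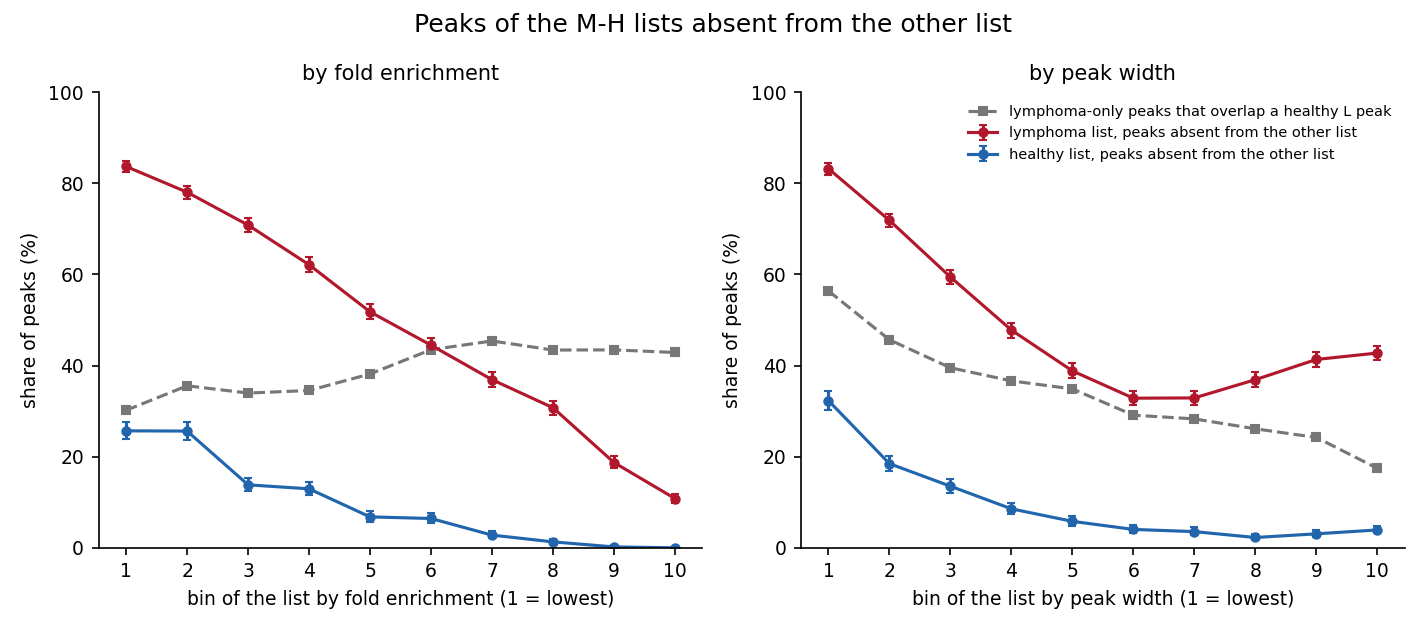
Share of peaks absent from the other M-H list in 10 equal bins by fold enrichment (left) and by width (right), for the lymphoma and healthy lists, with 95% Wilson intervals. The lymphoma share went from 83.7% to 10.8% with fold and turned upward in the wider bins, and the dashed line gives the share of lymphoma-only peaks that overlap a healthy L peak.

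Lymphoma-only peaks lay nearer to genes than shared peaks. Of the lymphoma-only peaks 29.6% were intergenic by the authors' annotation, against 38.4% of shared peaks. Sequence upstream of genes held 14.7% against 8.66%, and 5' UTRs 3.64% against 2.00%. Gene bodies, meaning UTRs, coding sequence and introns together, held 50.5% against 48.0%, most of it intronic in both classes (36.0% and 35.5%). The promoter flag, which marks peaks near a transcription start, was set on 18.0% of lymphoma-only and 10.4% of shared peaks. In 3' UTRs the order was the opposite, with 3.36% against 3.87%.

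Flags for CpG islands differed between overlapping peaks, so islands and shores were read together. Of 2489 healthy peaks flagged as islands with a lymphoma partner, 69.0% had a partner flagged as shore, while the flag for either one was alike in 99.9% of pairs. An island or shore flag was set on 56.2% of lymphoma-only and 52.6% of shared lymphoma peaks. Among healthy peaks it was set on 32.5% of healthy-only and 52.7% of shared peaks.

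Location and fold together separated the classes more than location alone. In the highest 25% of lymphoma folds, at 14.1 and above, the lymphoma-only share was 41.7% (38.8 to 44.6) of promoter peaks and 14.0% (13.3 to 14.8) of the others. It was 29.3% of island-or-shore peaks against 8.48% of the rest in that range, 19.1% of gene-body peaks against 16.1%, and 11.6% of intergenic peaks against 21.9%. In the lowest 25% of folds the contrasts were small, with 84.2% of promoter peaks against 78.4%, 78.6% of gene-body peaks against 79.7%, and 78.5% of intergenic peaks against 79.4%. For island-or-shore peaks the direction turned there, 76.7% against 81.7%. The gene-body contrast likewise changed direction between the lowest and the highest folds.

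The same order appeared with distance to the assigned transcription start. The lymphoma-only share was 65.3% within 1 kb, 58.6% at 1 to 5 kb, 50.9% at 5 to 20 kb, 47.2% at 20 to 100 kb and 42.3% beyond 100 kb. In the highest 25% of folds it spanned 47.6% to 9.26% over the same distances. Healthy-only peaks showed no such order, with 6.80% within 1 kb, 14.0% at 1 to 5 kb and 8.52% beyond 100 kb.

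**Figure D3:**
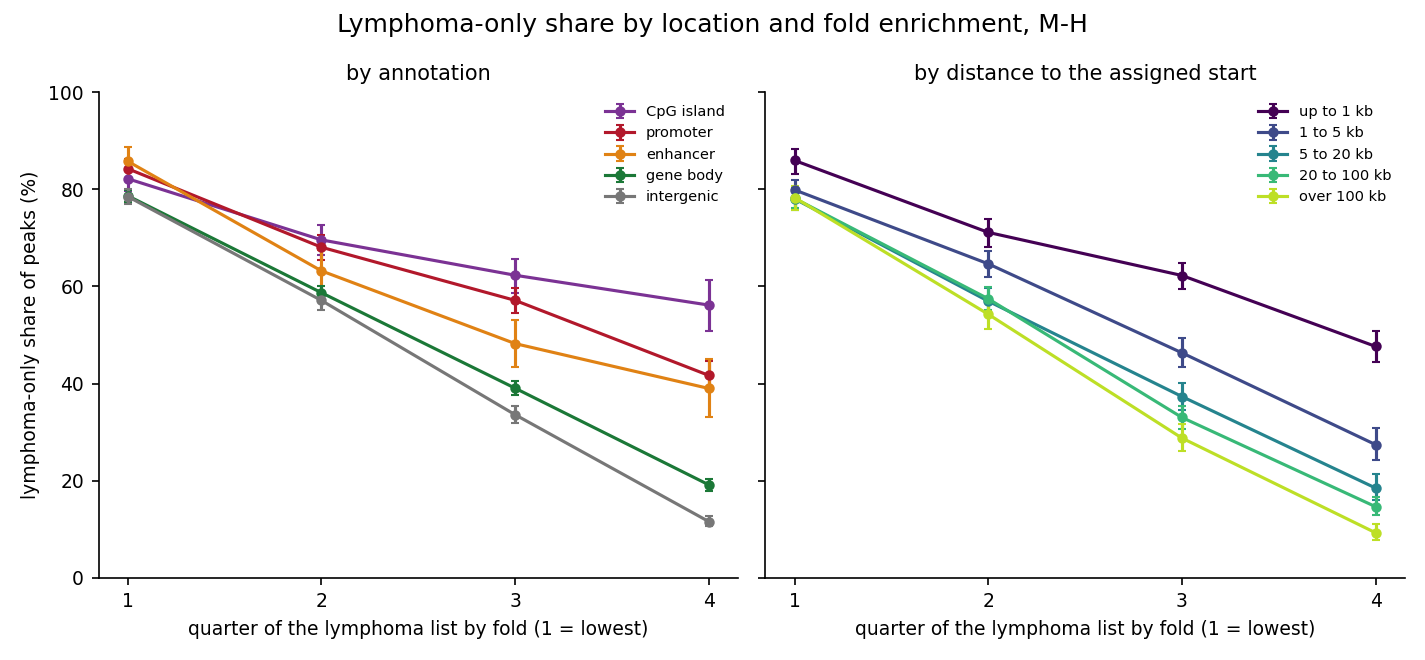
Lymphoma-only share of lymphoma M-H peaks in 4 equal bins of fold enrichment, by annotation (left) and by distance to the assigned transcription start (right), with 95% Wilson intervals. The lines lie close together in the lowest bin and spread in the highest, where promoter peaks reach 41.7% and intergenic peaks 11.6%.

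Enhancer-flagged peaks were lymphoma-only more often than unflagged ones. Of 1562 enhancer peaks in the lymphoma list 964 were lymphoma-only, 61.7% (59.3 to 64.1) against 48.2% of unflagged peaks. The flag was set on 5.65% of lymphoma-only and 3.34% of shared peaks. Outside promoters the shares were 60.0% and 46.0%, and among intergenic peaks, which lie away from any annotated gene, 62.6% and 41.6%. In the highest 25% of folds they were 39.0% (33.2 to 45.1) and 16.8%. In the healthy list the flag was set on 3.52% of healthy-only and 3.30% of shared peaks.

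Several genes carried more than 1 lymphoma-only enhancer peak. SLC22A23, an orphan member of the organic ion transporter family, had 5 lymphoma-only among its 6 enhancer peaks. ETS1, a transcription factor of lymphocytes, had 4, and all its enhancer peaks were lymphoma-only. FOXN3 and GSE1 had 3 of 5 each, near the 61.7% of all enhancer peaks, SPTBN1 3 of 4, and ARHGAP25, BICRA and PTPRE 3 of 3 each. Of the 964 peaks, 248 had no gene assigned, 756 overlapped a lymphoma L peak and 365 (37.9%) overlapped a healthy L peak. The highest fold was 22.5 at an intergenic enhancer at chr1:61943610-61944157 (CanFam3.1), with no healthy M-H or L peak. An intronic enhancer of FGF1, a fibroblast growth factor, reached 20.7 at chr2:37507780-37508354 and did overlap a healthy L peak.

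Gene bodies as units gave a call for 9265 genes with a body peak in either list. In 5481 the body carried peaks of both lists, in 3355 (36.2%) of the lymphoma list alone and in 429 of the healthy list alone. Promoter and body calls often parted within a gene. Of 2880 genes whose promoter peaks were all lymphoma-only, 1552 also had a lymphoma body peak, and in 730 of these (47.0%) the body had a shared peak. Where the promoter peak was shared, the body had a shared peak in 701 of 824 genes (85.1%), and where there was no promoter peak, in 3990 of 6450 (61.9%). A peak can lie in a gene body and carry the promoter flag too, as in introns of HORMAD1 and STAG3. The same peak may then stand behind both calls of a gene, so part of their agreement may be built in. Calls with such peaks left out are not given here.

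Lymphoma-only peaks were spread over many genes, and few genes held many. At least 1 was assigned to 7834 of 12255 genes with a lymphoma peak (63.9%), 5 or more to 219 genes (1.79%) and 10 or more to 28. In the healthy list 1118 of 7873 genes had a healthy-only peak, 20 had 3 or more and none had 5. The 219 genes held 1579 lymphoma-only peaks, 9.26% of the total, and 94.2% of these lay in gene bodies, 86.1% in introns. Peaks of 1 gene are not independent, and the counts are not corrected for gene length. With lists of the same length 7 genes kept 5 or more, and with an equal ratio at the lowest background 0.

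The 15 named genes with the most lymphoma-only peaks held 13 to 26 each. CSMD1, which encodes a large membrane protein with complement-binding domains, had 26 lymphoma-only among 55 lymphoma peaks, spread from 55153869 to 56642890 on chromosome 16. AGAP1, a GTPase-activating protein of membrane traffic, had 25 of 38, with 23 of them in introns. NTM, a neural adhesion protein of the IgLON family, had 25 of 36, all within introns. SHANK2, a scaffold of excitatory synapses, had 22 of 34 and a single one in a healthy L peak.

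In PRKG1, a cGMP-dependent protein kinase, 19 of 26 lymphoma peaks were lymphoma-only, and in DLGAP2, another postsynaptic scaffold protein, 18 of 26. NAV2, a cytoskeletal protein of growing neurites, had 18 of 35, and ASTN2, which acts in neuronal migration, 17 of 28. EFNA5, an ephrin ligand of axon guidance, and CDH23, a cadherin of the inner ear, had 16 each, of 27 and 22. GRID1, a glutamate receptor subunit, and GSE1, a chromatin-associated protein, had 15 each, of 22 and 24. PTPRN2, a phosphatase-like protein of secretory vesicles, had 14 of 27, LDLRAD4, a regulator of TGF-beta signalling, 13 of 25, and PRDM16, a zinc-finger regulator of transcription, 13 of 21.

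These peaks were mostly weak. The median fold of lymphoma-only peaks in the 15 genes ran from 6.63 in PRKG1 to 8.04 in NAV2, and none of these peaks reached the highest 25% of folds, the strongest being 13.3 in ASTN2 (chr11:70895478-70896122). Most were also without a healthy L peak, 22 of 26 in CSMD1 for example, although ASTN2 had 8 of 17 in one. Healthy-only peaks occurred in the same genes, 4 in DLGAP2, 3 each in CSMD1, PRKG1, NAV2, GSE1 and PTPRN2, and none in ASTN2.

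**Figure D4:**
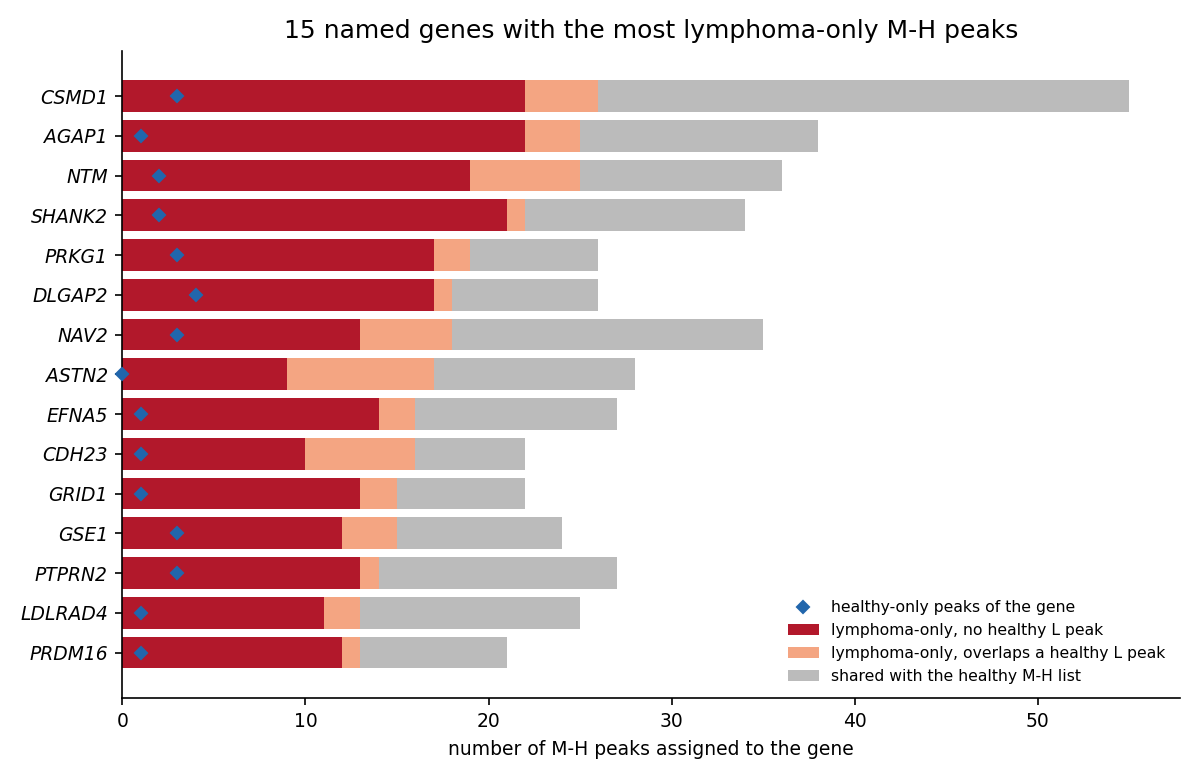
Number of lymphoma M-H peaks in each of the 15 named genes with the most lymphoma-only peaks, split into lymphoma-only peaks without and with a healthy L peak and shared peaks, with diamonds for healthy-only peaks. CSMD1 carried 26 lymphoma-only and 29 shared peaks, and no gene had more than 4 healthy-only peaks.

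Many lymphoma-only peaks usually came with many shared ones. CSMD1 also led the shared peaks with 29. SLIT2, a secreted guidance cue, had 19 shared of 21, EPHA3, an ephrin receptor, 16, and ARHGEF28 and KALRN 14 each. NAV2 had 17 shared peaks, AGAP1, PTPRN2 and ANKS1B 13 each and SHANK2 12. Among the 150 genes with 10 or more lymphoma peaks the median lymphoma-only share was 50.0% (interquartile range 36.5 to 60.5), close to the 48.8% of the whole list.

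The ends of that order differed widely, and the genes named from them were chosen after their values were seen. GRIK3, a kainate receptor subunit, had 10 lymphoma-only of 12 peaks, ADCY5, an adenylate cyclase, and LGR5, a receptor known as a stem cell marker, 9 of 11 each. At the other end SLIT2 had 2 of 21, EPHA6 1 of 12, and GABRG3, a GABA receptor subunit, 1 of 10. Of the 219 genes, 19 had no shared peak at all. TBX5, a transcription factor of heart and forelimb, EPB41L4A, CACNA1S, the calcium channel of skeletal muscle, and NUP210, a nuclear pore protein, had 6 lymphoma-only peaks each and no shared one. LITAF, TGFBI, ESRRG, PTPRS and TMEFF2 were among those with 5.

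The strongest lymphoma-only peaks with an assigned gene lay outside these 15 genes. Only peaks with a distance to a start were ranked here, and the 5 strongest intergenic lymphoma-only peaks, at 21.8 to 22.5, stood above most of those named. Away from transcription starts by more than 1 kb, the highest fold was 23.2 at chr36:7476813-7477366 upstream of DPP4, the cell-surface peptidase CD26. GRAP2, an adaptor of T-cell receptor signalling, had 21.2 in an intron (chr10:25202048-25202641), and PPIC, cyclophilin C, had 21.0 upstream (chr11:12894994-12895562). These 3 peaks overlapped a lymphoma L peak and no healthy L peak. CYP4F22 (21.7), LMX1A (21.6), ST8SIA4 (21.3) and SLC8A2 (21.3) had intronic peaks of similar fold that did overlap a healthy L peak. The other 3 of the leading 10 belonged to uncharacterised genes.

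The widest lymphoma-only peaks were close to the fold minimum. A peak of 2929 bp over the 5' UTR of RNF220, a ubiquitin ligase, had a fold of 6.25. Peaks of TLX2, a homeobox factor, PPM1H, a phosphatase, UNC5C, a netrin receptor, ACTL8 and RYR3, a calcium release channel, were 2484 to 2646 bp wide with folds of 6.03 to 6.90. Among all 10, only PPM1H overlapped a healthy L peak.

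Healthy-only peaks were few and low. Over 1 kb from a start, DYNC1H1, the dynein heavy chain, had the highest fold among named genes, 11.4 in coding sequence (chr8:70013531-70014081), and this locus had peaks in both L lists. PIK3R2, a regulatory subunit of PI3-kinase, had 10.7 in its 5' UTR, SPC24, a kinetochore protein, 10.4 downstream at a peak also flagged as enhancer, INSRR 10.1 and STOX2 10.0. The SPC24, PIK3R2 and STOX2 loci had no peak in either L list, though a lymphoma M-H peak lay within 1 kb of the one in STOX2. DLGAP2 and GLI2, a transcription factor of Hedgehog signalling, had 4 healthy-only peaks each. CADPS2, MYT1L, GTF2IRD1, CSMD2, SORCS2, NAALADL2, SLC39A11 and MAML3 were among those with 3. Only SLC39A11, with 3 of 4, NAALADL2, with 3 of 5, GTF2IRD1 and CSMD2, with 3 of 6, reached or passed an even split among these. The widest healthy-only peaks of named genes were in CCDC177 (2052 bp), EPPK1 (1962 bp), CADPS2 (1899 bp) and COL5A2 (1821 bp), and the leading enhancer peaks of named genes after SPC24 were those of ALYREF (10.1), FRK (8.61), GSE1 (8.61) and ICAM5 (8.54).

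Every peak of a gene list has an assigned gene. Of such lymphoma peaks 52.15% (12007 of 23024) were lymphoma-only, against 48.8% of all lymphoma peaks. Of 16 lists of genes, those of HOX genes and collagens had lymphoma-only shares above 52.15% by more than their counting intervals. Polycomb and histone modifiers, receptors of glutamate, GABA and glycine and, narrowly, genes altered in B-cell lymphoma passed only 48.8% in this way. The intervals of these last 3 lists hold 52.15%. The share was 79.5% (35 of 44 peaks, 65.5 to 88.8) for HOX genes, which set body position in development. It was 64.8% (70 of 108) for collagens, 62.8% (49 of 78) for Polycomb and histone modifiers and 57.2% (83 of 145) for the receptors. Genes altered in B-cell lymphoma reached 63.6% (28 of 44, 48.9 to 76.2). A share over peaks is a description, since several peaks come from 1 gene, and no test was made of any list. Nor were the shares adjusted for fold, which the lymphoma-only share follows. Of the 78 peaks of Polycomb and histone modifiers, 32 were in the lowest 25% of folds and 6 in the highest. For genes altered in B-cell lymphoma these were 15 and 1 of 44. In the lowest 25%, 25 of the 32 and 13 of the 15 were lymphoma-only, against 79.1% of all lymphoma peaks there.

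The HOX peaks were of moderate fold. HOXD3 had 4 lymphoma-only peaks and none shared, HOXC4 had 4 of 5, HOXA13 and HOXC12 had 2 of 2 and HOXB3 2 of 3. Their median fold was 8.57, and 1 of the 4 HOX peaks in the highest 25% of folds was lymphoma-only, in an intron of HOXC4 at 14.1. HOXB5 had the single healthy-only peak, at 6.90. Lymphoma-only collagen peaks lay mostly in bodies, 58 of 70, against 8618 of all 12007 lymphoma-only peaks with an assigned gene (71.8%), led by COL22A1 with 9 of 13, COL5A1 with 8 of 9 and COL27A1 with 6 of 8. Healthy-only collagen peaks numbered 10 of 48 (20.8%, 11.7 to 34.3), in COL5A1, COL26A1 and 6 others, against 9.58% of all healthy peaks.

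Of the 49 lymphoma-only peaks of Polycomb and histone modifiers, 40 lay in bodies (81.6%) and 4 carried the promoter flag (8.16%). Over all lymphoma-only peaks with an assigned gene these shares were 71.8% and 25.6%. PRDM16 led with 13 and KDM2B, a demethylase that binds unmethylated islands, had 3 of 4 with a fold of up to 18.1. That strongest KDM2B peak overlapped a healthy L peak, and 1 of the 2 healthy M-H peaks of KDM2B was healthy-only. BMI1, a Polycomb protein, and SETD1A, a methyltransferase, had 2 of 2. Among DNA methylation enzymes and readers 13 of 24 peaks (54.2%, 35.1 to 72.1) were lymphoma-only. DNMT3A, a de novo methyltransferase, had 6 of 9, TET3, an oxidase that starts demethylation, 3 of 5, and MBD1 and UHRF1 had 1 each. RUNX1, a haematopoietic transcription factor placed in the list of genes altered in B-cell lymphoma, led that list with 7 of 9. Its 7 were all intronic, none in a healthy L peak and none above a fold of 8.76. They made up 7 of the 28 lymphoma-only peaks of the list, whose share leans on this gene. CIITA, CREBBP and NOTCH1 had 2 of 2 and KMT2D 2 of 3, while BCL2 and CD79B were among those with healthy-only peaks.

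Identity genes of B and T cells were near the share of the whole list. B-cell genes had 24 of 50 peaks lymphoma-only (48.0%), with 4 of 9 in PAX5, 4 of 5 in IKZF1 and 3 of 7 in POU2F2. T-cell genes had 19 of 37 (51.4%), led by BCL11B with 4 of 6. Monocyte and granulocyte genes had 13 of 21, a higher share whose interval still holds that of the whole list (61.9%, 40.9 to 79.2). CSF1R had 2 of 3 and VCAN 2 of 2, all of which overlapped a healthy L peak. FCGR1A, the high-affinity IgG receptor of monocytes, had a promoter peak of 15.2, and CD14 and CEBPA had 1 lymphoma-only peak each. The peaks of FCGR1A, CD14 and CEBPA overlapped no healthy L peak, but 5 of the 13 in the list did. Because tissues differ between the groups, the part of cell composition in these peaks was not tested.

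Of the remaining lists only germline genes had an interval below the 48.8% of all lymphoma peaks. Below the 52.15% of lymphoma peaks with an assigned gene lay 3 further intervals. They were those of large and fragile-site genes (40.1 to 51.7), axon guidance genes (38.1 to 49.9) and tumour suppressors (32.3 to 50.6). WNT antagonists had 29 of 48 (60.4%, 46.3 to 73.0), with 4 of 9 in NKD1, 4 of 5 in AXIN2 and 2 of 2 in DKK1 and DACT2. Large and fragile-site genes had 128 of 279 (45.9%), calcium and sodium channels 49 of 107 (45.8%), axon guidance genes 119 of 271 (43.9%) and tumour suppressors known for promoter methylation 44 of 107 (41.1%). In that last list 42 of 44 lymphoma-only peaks were in gene bodies (95.5%, 84.9 to 98.7), against 71.8% of all those with an assigned gene. MGMT, a DNA repair enzyme, had 5 of 15 and RARB, a retinoic acid receptor, 5 of 7. Of the 4 healthy RARB peaks 2 were healthy-only. Germline genes had 12 of 39 (30.8%, 18.6 to 46.4), and 10 of those 12 overlapped a healthy L peak. Housekeeping genes had 4 of 12 (33.3%).

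**Figure D5:**
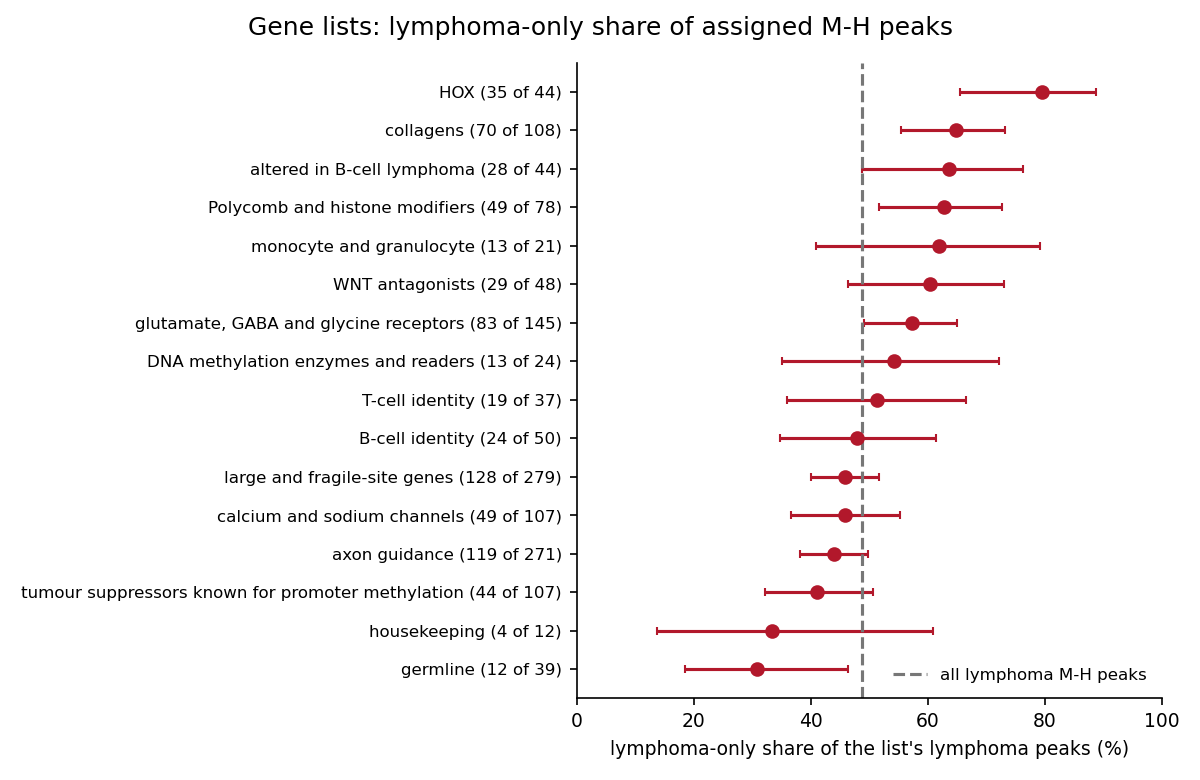
Lymphoma-only share of the lymphoma M-H peaks assigned to the members of 16 gene lists, with 95% Wilson intervals and, in brackets, lymphoma-only peaks of all lymphoma peaks of the list. HOX genes stand highest at 79.5% and germline genes lowest at 30.8%. Shares are not adjusted for fold. The dashed line marks the 48.8% of all lymphoma peaks, intergenic ones included, and lymphoma peaks with an assigned gene had 52.15%.

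Genes of transfer RNAs, a family looked at after the values were seen, had 60 lymphoma-only of 78 peaks (76.9%, 66.4 to 84.9). Unlike the HOX peaks, 18 of these were in the highest 25% of folds, and 14 of the 18 were lymphoma-only. The promoter flag was set on 58 of the 78, and 47 of these 58 were lymphoma-only, against 62.3% of all promoter peaks. Such genes have near-identical copies, and how reads that map to several were treated is not stated in the sources used here. Of the 60 peaks, 53 overlapped a lymphoma L peak and 14 a healthy L peak. In the same count zinc finger genes had 51.9%, solute carriers 55.5%, potassium channels 48.7%, microRNA genes 50.9%, uncharacterised genes 47.9% and olfactory receptors 26.7% (4 of 15).

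Runs of consecutive lymphoma peaks without a shared one were mostly short. Of 8008 such runs 3961 (49.5%) held 1 peak, 1904 held 2 and 997 held 3, and how long runs would be by chance was not tested. The longest held 24 peaks, at chr17:58669870-59700284, a region with 6 transfer RNA gene symbols, FCGR1A and SV2A and with no healthy M-H peak inside. All 24 overlapped a lymphoma L peak and 7 a healthy L peak. Runs of 19 lay at chr4:21971870-22312260, over CDH23, SLC29A3 and UNC5B, and at chr28:12896963-13677537, around PAX2 and SEMA4G. The HOXD cluster held a run of 15 (chr36:19707780-19980746) and the HOXC cluster one of 14 (chr27:1211118-1334657), both with no healthy M-H peak inside. A healthy L peak was overlapped by 2 of the 15 and 4 of the 14. A lymphoma L peak was overlapped by 8 of the 15 and 7 of the 14, against 75.2% of all lymphoma-only peaks. A further run of 15 at chr35:24361513-24693245 covered 6 transfer RNA gene symbols and PRSS16.

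By windows of 1 Mb, the highest count was 45 lymphoma-only of 58 lymphoma peaks at chr2:80000001-81000000, over IGSF21, ACTL8, PADI4 and PADI6, of which 1 overlapped a healthy L peak. The next was 44 of 64 at chr9:1000001-2000000, around RPTOR and TBC1D16, with none. By chromosome the share ran from 37.6% on 32 to 58.7% on 9, and it was 39.1% on X.

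The L libraries of the same dogs, which the calls above did not use, gave a further look at each locus. Among lymphoma-only peaks 75.2% overlapped a lymphoma L peak and 37.0% a healthy L peak, against 88.7% and 65.4% of shared lymphoma peaks. Within equal ranges of fold the lymphoma L shares of both classes were close. From the lowest to the highest 25% of folds they were 58.6% of lymphoma-only against 56.8% of shared peaks, 77.9% against 74.1%, 93.9% against 94.4% and 98.8% against 99.7%. For healthy L they were 32.2% against 38.2%, 36.7% against 40.8%, 44.6% against 60.5% and 42.3% against 88.0%. A peak in the lymphoma L list and not in the healthy L list was found for 6661 lymphoma-only peaks (39.1%), and 4087 (24.0%) had neither. Those 4087 were weak, with a median fold of 6.97, and 78.5% were flagged as island or shore. Healthy-only peaks overlapped healthy L (46.1%) and lymphoma L peaks (45.3%) about equally often, and 41.6% had neither. Since the dogs are the same, this is not independent evidence in other animals.

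A set of 876 strong peaks, selected for it, had no listed healthy peak. They were in the highest 25% of lymphoma folds and had neither a healthy M-H peak within 1 kb nor a healthy L peak, out of 1524 lymphoma-only peaks at such folds. A lymphoma L peak was overlapped by 858 of them. An island or shore flag was set on 82.8% of them, a promoter flag on 38.1%, an enhancer flag on 6.51%, and 48.2% lay in gene bodies. For the 7210 shared peaks at such folds the values were 36.9%, 8.78%, 2.15% and 42.7%. These shared peaks were not filtered by healthy L, and 88.0% of them overlapped a healthy L peak. Without that filter, all 1524 lymphoma-only peaks at such folds had 72.3%, 29.7%, 6.50% and 47.8%.

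Beside DPP4, GRAP2 and PPIC the set held peaks of members of the gene lists, some of which follow as examples. COL4A4, a collagen of basement membranes, had 18.3 and WIF1, an inhibitor of WNT ligands, 17.7. LSAMP had 18.3, EPHB6 17.3, DPP10 17.2, PLXNC1 16.9 and UNC5A 16.9. Of blood cell genes, CD38 had 17.0 in coding sequence, FCGR1A 15.2 and CD8A 14.7. CACNA1A, a calcium channel of neurons, had 2 such peaks, at 15.1 and 17.1, and, outside the lists, AGGF1 had 3. The transfer RNA gene symbol TRNAS-GCU also had 3, but 1 such symbol can stand for copies at several loci. No HOX gene and no gene of the DNA methylation list had one.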

How the data were processed

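MethylCap-seq peaks were deposited as 4 lists, 1 per group and library label, for 16 libraries of 8 dogs. The submitters' processing notes name BWA and MACS2, with no versions or settings, and the CanFam3.1 build. Per the file headers, the deposited lists give position, length, fold enrichment (a ratio, at least 6 in every list), gene, distance to its start and flags. Values per dog, counts and p-values are not in them, and the depth is unknown. Starts were read as 0-based and are printed 1-based, and 3 lymphoma rows with shifted gene columns were kept as intergenic.

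Peaks were compared with Python 3.11.15, pandas 2.3.3 and numpy 2.4.6, and bedtools 2.31.1 gave the same shared counts. The overlap step was tested on simulated data, where 100% of 17635 planted shared peaks were found. Shares carry 95% Wilson intervals (scipy 1.17.1). Groups came from the labels.

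The members, the gene lists and the rule for named genes were chosen with earlier results of these data known. The rule took, per list, the 15 named genes with the most peaks of that list alone, the 10 such peaks of highest fold over 1 kb from a start, the 10 widest and the 10 enhancer peaks of highest fold, then the members of each gene list with the most lymphoma-only peaks and the 10 genes with the most shared peaks. Alternatives were another overlap, a stricter fold, lists cut to equal length, absence over a wider window, and, added after seeing the data, an equal ratio at the lowest background. Some genes are not reported here by name but stay in the counts.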

Additional observations from a re-analysis of the deposited data

How the results depend on the processing

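Of the 9 results, the number of genes with 5 or more lymphoma-only peaks has no counting interval. With at least 50% of the shorter peak overlapped, that number stayed at 219 and all other results stayed within their counting error. With absence required within 1 kb, the lymphoma-only share was 47.65% and the healthy-only share 8.884%, both outside their intervals. The number of such genes was 214, and the remaining results stayed within their counting error. With only folds of 8 and above kept, the shares were 59.66% and 6.413%. Among lymphoma-only peaks 9.937% were then islands, 5.233% enhancers and 45.67% in a healthy L peak, and the ratios of lymphoma-only to shared medians were 0.8994 for width and 0.6851 for fold. With both lists cut to equal length by fold, 31.01% of lymphoma and 30.72% of healthy peaks lacked a counterpart, alike by arithmetic. Islands were then 13.05%, enhancers 6.2%, gene bodies 49.33% and healthy L overlap 43.32%, the ratios were 0.8691 and 0.8193, and 7 genes in place of 219 kept 5 lymphoma-only peaks. The lymphoma list was also held to the healthy list's ratio at the lowest background, a setting added after seeing the data. Then 15.11% of lymphoma peaks and, because that cut shortens the lymphoma list alone, 69.41% of healthy peaks lacked a counterpart. Enhancers were 6.938%, gene bodies 47.36%, healthy L overlap 43.11% and the ratios 0.8993 and 0.9522, and 0 genes kept 5 lymphoma-only peaks. Promoter flags were then on 30.2% of lymphoma-only and 8.08% of shared peaks.

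No paired analysis was possible because every list is over a whole group of dogs, and leaving out a dog was not possible either. Read depth per dog is unknown.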
